A study of Homo sapiens with 2 samples.

Results

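Occupancy by the FLAG-tagged factors wt-Cdx1 and wt-Cdx2 was examined at the loci of 4 genes of the intestinal secretory lineage, MUC2, ATOH1, SPDEF and TFF3, by ChIP-seq in DLD1-TetOff cells. The peaks were those with their summit in the gene or in about 30 kb on either side, and for FLAG-wt-Cdx1 they numbered 27 of 196910, and for FLAG-wt-Cdx2 35 of 218718. DLD1-TetOff is a human colon cancer line (DLD1) carrying the pTetOff plasmid, in which doxycycline (DOX) represses a gene transfected later. Each factor had 1 library, with 17264704 (FLAG-wt-Cdx1) and 14534643 (FLAG-wt-Cdx2) tags, named FLAG-wt-Cdx1 or FLAG-wt-Cdx2, made from 10 pooled dishes harvested 20 h after withdrawal of DOX (0.5 µg/mL). Cells of both libraries were fixed in 1% formaldehyde for 5 min, and the chromatin was digested with micrococcal nuclease for 50 min. The tagged proteins were of mouse origin, and each was expressed from a clone grown from a single cell. The sample descriptions speak of cells kept with DOX, but the growth and treatment protocols state its withdrawal, so that both libraries were taken as induced. Neither an input library nor a library without the tagged protein was analyzed here, and expression of the 4 genes was not measured here. Replicates were lacking, so that the factors could not be compared by a test, and intervals cover counting error only.

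Goblet cells of the intestine secrete the mucus that coats the epithelium. Their precursors are set apart by ATOH1, a basic helix-loop-helix transcription factor that directs progenitors to the secretory fate and is held down by Notch signaling. SPDEF, an ETS-family factor acting after ATOH1, promotes the maturation of goblet cells. MUC2 is the gel-forming mucin of this mucus, and TFF3 is a small trefoil peptide released with it that aids epithelial repair. CDX1 and CDX2 are homeodomain factors of the intestinal epithelium that bind AT-rich DNA, typically with TTTAT at its core.

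The windows were chromosome 11 from 1045000 to 1135000 for MUC2, chromosome 4 from 94720000 to 94782000 for ATOH1, chromosome 6 from 34475000 to 34555000 for SPDEF and chromosome 21 from 43701000 to 43766000 for TFF3. Positions follow GRCh37, the build named in the submitters' processing notes. MUC2 and ATOH1 lie on the plus strand, SPDEF and TFF3 on the minus strand. No annotation of GRCh37 was used here, so the TSS was placed 30 kb inside the window on its 5′ side. The gene lengths left by this placement differed from those in GRCh38.p14 by at most 1.47 kb at ATOH1, SPDEF and TFF3, and distances to the TSS are therefore approximate. Whether a summit lies in an exon or an intron was not determined. At MUC2 the difference was 5.64 kb, with 35635 bp in GRCh38.p14 and 30000 bp here.

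The bases just before the start site are shown so that they can be set beside the position of the nearest summits. The RefSeq promoter table (GRCh38.p14) held 3 of the 4 genes, and 250 bp upstream of the start are printed 5′ to 3′ for each, in lower case with any TTTAT, or its reverse complement ATAAA, in capitals. They are chr11:1074624-1074873 (plus strand) for MUC2, chr4:93828503-93828752 (plus strand) for ATOH1 and chr6:34556330-34556579 (minus strand) for SPDEF.
MUC2: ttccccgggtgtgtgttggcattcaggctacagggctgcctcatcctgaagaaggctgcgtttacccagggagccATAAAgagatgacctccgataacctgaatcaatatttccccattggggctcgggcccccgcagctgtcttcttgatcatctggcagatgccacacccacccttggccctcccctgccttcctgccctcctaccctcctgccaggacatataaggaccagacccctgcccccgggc
ATOH1: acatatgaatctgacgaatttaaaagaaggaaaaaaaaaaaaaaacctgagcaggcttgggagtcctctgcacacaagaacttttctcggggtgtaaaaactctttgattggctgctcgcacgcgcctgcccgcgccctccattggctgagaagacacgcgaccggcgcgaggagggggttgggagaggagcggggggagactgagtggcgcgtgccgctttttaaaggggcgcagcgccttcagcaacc
SPDEF: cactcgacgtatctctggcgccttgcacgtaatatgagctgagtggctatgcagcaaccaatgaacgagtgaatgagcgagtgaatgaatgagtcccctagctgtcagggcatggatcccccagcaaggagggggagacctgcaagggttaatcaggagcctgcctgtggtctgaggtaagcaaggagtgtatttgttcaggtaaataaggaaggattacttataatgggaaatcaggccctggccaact
The MUC2 sequence held 1 match, beginning 175 bp before the start, and those of ATOH1 and SPDEF held 0. Of 35116 RefSeq promoters, 32.7% had at least 1 match in the same 250 bp. A match is a run of letters and not a measured site. No summit of either library was called within 2 kb of the placed TSS of MUC2, ATOH1 or SPDEF, although at SPDEF the nearest, at 2.1 kb, was not far beyond the uncertainty of the placement.

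The number of summits was highest at MUC2 in both libraries. In 90 kb, 12 FLAG-wt-Cdx1 and 17 FLAG-wt-Cdx2 summits were called, which is 1.33 per 10 kb (95% exact Poisson interval, 0.689 to 2.33) and 1.89 per 10 kb (1.1 to 3.02). When chromosomes 1 to 22 and X were cut into tiles of 90 kb, leaving out tiles with no summit in either list, the median tile had 6 FLAG-wt-Cdx1 and 7 FLAG-wt-Cdx2 summits, and 94.1% and 99.7% of 31085 tiles had fewer than MUC2. TFF3 had 6 and 9 summits in 65 kb, against tile medians of 4 and 5, and 66.6% and 90.2% of tiles of this length had fewer. SPDEF had 5 and 6 summits in 80 kb, the same as the tile medians, and ATOH1 had 4 and 3 in 62 kb against medians of 4 and 5. The Poisson intervals of the counts per 10 kb overlapped between MUC2 and each of the other loci in both libraries. Overlap of separate intervals does not decide whether loci differ, and the order of the loci was not tested.

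**Figure D1:**
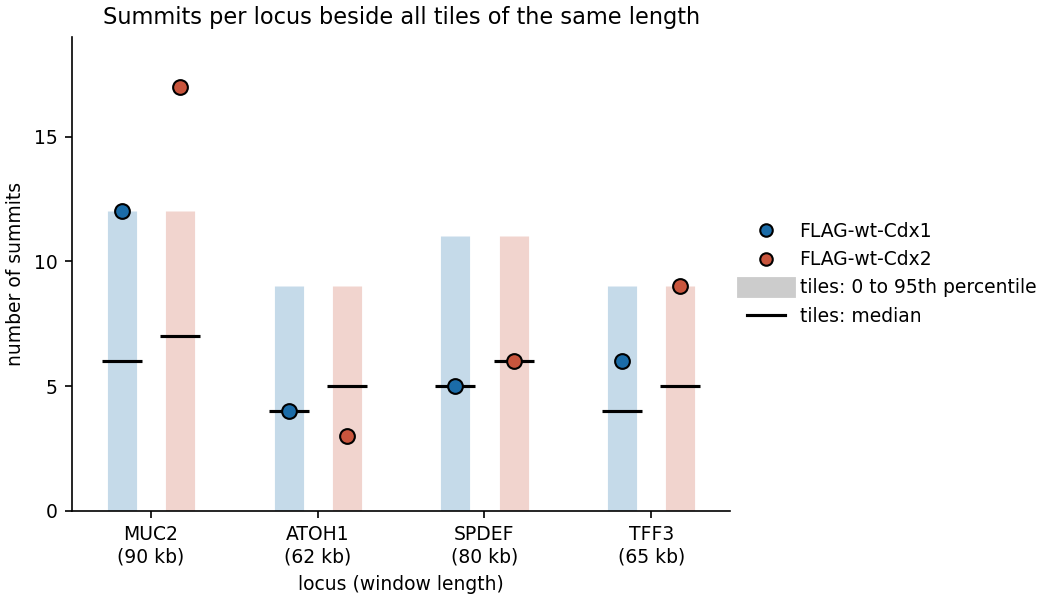
Number of summits at each locus (vertical axis) for FLAG-wt-Cdx1 (blue) and FLAG-wt-Cdx2 (red), with the length of the window below the gene name. Shaded bars run from 0 to the 95th percentile of all tiles of that length and black lines mark the tile median. The 17 FLAG-wt-Cdx2 summits of MUC2 stand above the bar, which ends at 12, and the other points lie within or at the top of theirs.

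Within 5 kb of the placed TSSs, 2 FLAG-wt-Cdx1 and 4 FLAG-wt-Cdx2 summits were called over the 4 loci (7.41% and 11.4% of them), and these zones made up 13.5% of the windows. They were 1 and 1 at MUC2, 1 and 2 at SPDEF, 0 and 1 at TFF3, and 0 and 0 at ATOH1. Relative to the gene, 9 FLAG-wt-Cdx1 summits were upstream, 5 inside and 13 downstream, and the FLAG-wt-Cdx2 summits were divided 13, 6 and 16. The genes made up 19.2% of the windows and held 18.5% and 17.1% of the summits, so that the counts near the TSS and inside the genes were small and not far from the share of sequence. The FLAG-wt-Cdx2 summit at 1110212 was 5.2 kb past the placed end of MUC2. Its place relative to the longer gene of GRCh38.p14 was not determined, as positions were not converted between builds. As the lowest pileup called over a genome-wide background was 5 fragments in the FLAG-wt-Cdx1 list and 4 in the other, weaker binding at the TSSs was not detectable at this depth.

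**Figure D2:**
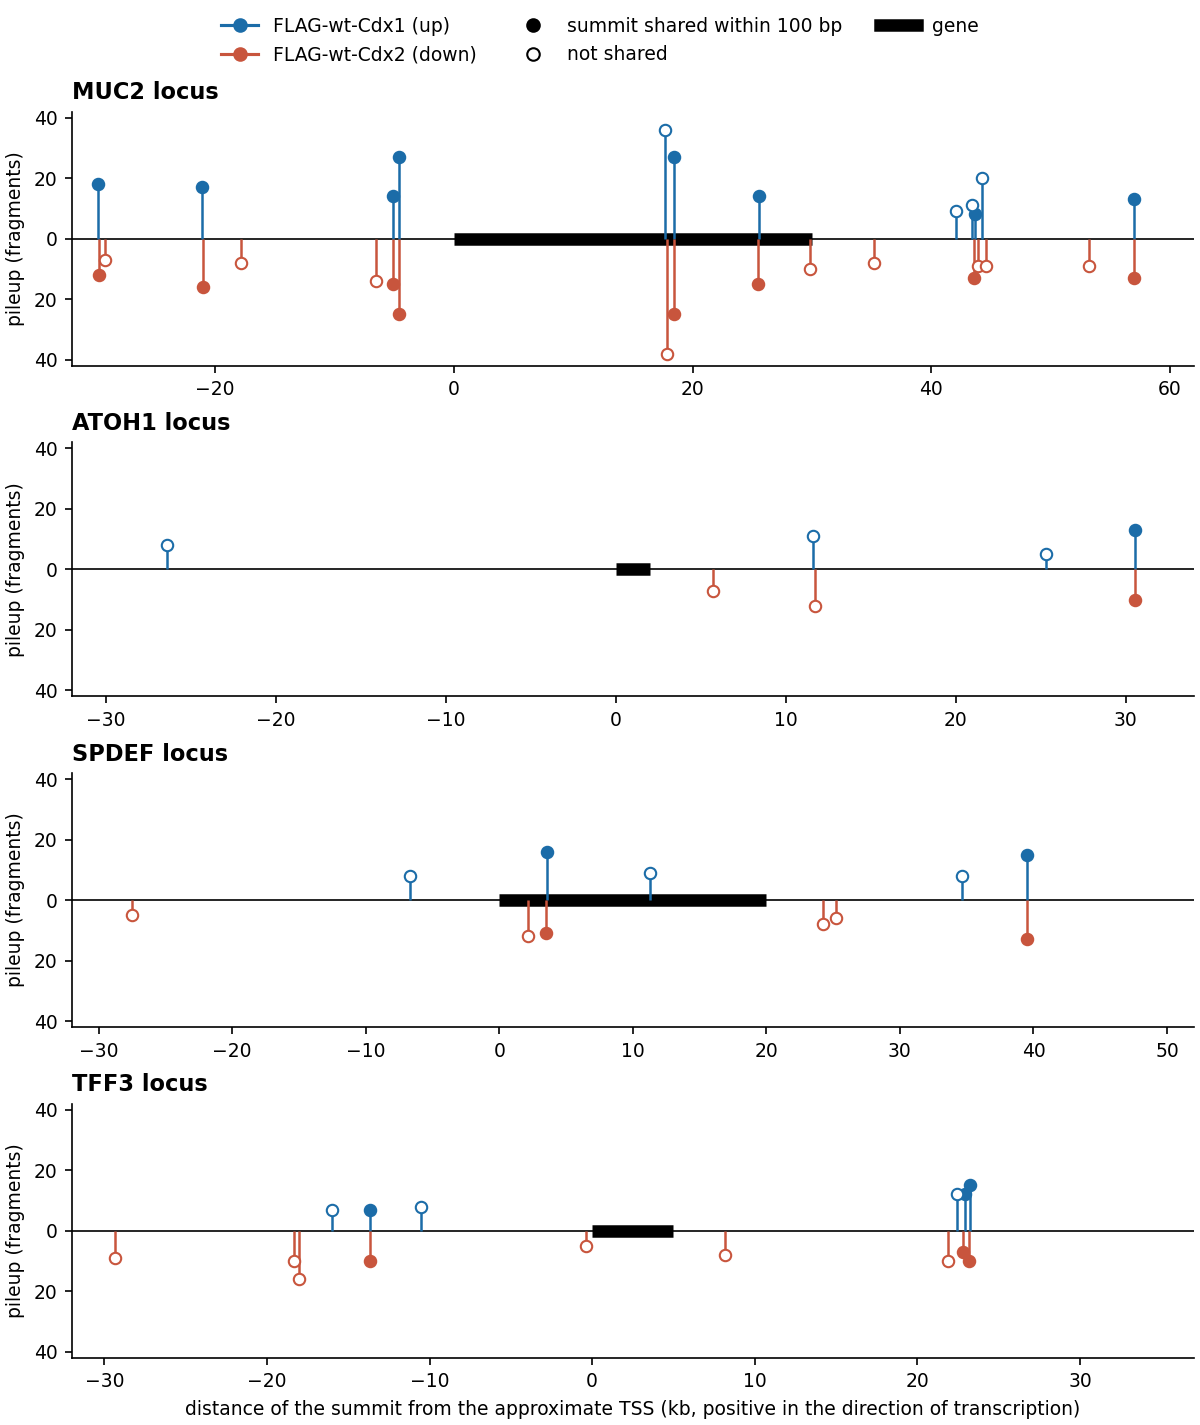
Peaks of the 4 loci by distance of the summit from the placed TSS (horizontal axis, kb) and pileup in fragments (vertical axis, FLAG-wt-Cdx1 upward and FLAG-wt-Cdx2 downward). Filled points are summits with a summit of the other library within 100 bp, open points are not, and the black bar is the gene. The tallest peaks of both libraries, at 36 and 38 fragments, stand inside MUC2, and ATOH1 has no peak in the gene.

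At ATOH1, the peaks of both libraries were mainly downstream of the gene. Pileup here counts the fragments that lie over a summit, and fold enrichment divides it by the local background, with 1 added to each. The nearest FLAG-wt-Cdx2 summit was at 94755736, 5.7 kb downstream of the TSS and 3.7 kb past the gene, with a pileup of 7 fragments (95% exact Poisson interval, 2.81 to 14.4) and a fold enrichment of 4.72. No FLAG-wt-Cdx1 summit was called within 5870 bp of it. ATOH1 is known to activate its own gene through an enhancer downstream of the coding sequence, and whether this summit lies in it was not tested. Farther out, a FLAG-wt-Cdx1 summit at 94761606 (pileup 11, fold enrichment 6.67) and a FLAG-wt-Cdx2 summit at 94761732 (pileup 12, fold enrichment 7.67) stood 126 bp apart, just over the 100 bp allowed for sharing, although the peaks overlapped by 257 bp. The latter was the strongest FLAG-wt-Cdx2 peak of the locus, above 86.1% of its list by pileup and 94.0% by fold enrichment.

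The shared ATOH1 summits, at 94780539 and 94780549, lay 30.5 kb downstream of the TSS with 13 fragments (6.92 to 22.2) for the former library and 10 (4.80 to 18.4) for FLAG-wt-Cdx2. The other FLAG-wt-Cdx1 summits were 26.4 kb upstream, with a pileup of 8, and 25.3 kb downstream, with a pileup of 5. A further FLAG-wt-Cdx1 summit, at 94782115, was just outside the window and had a pileup of 9.

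At SPDEF, both factors had a summit inside the gene near its 5′ end. The FLAG-wt-Cdx1 peak spanned 34521297 to 34521550 with its summit at 34521464, 3.5 kb downstream of the TSS. It had 16 fragments (9.15 to 26.0) and a fold enrichment of 9.45, above 91.3% of the list by pileup and 97.3% by fold enrichment, and was the strongest FLAG-wt-Cdx1 peak of the locus. The FLAG-wt-Cdx2 peak spanned 34521432 to 34521597 with its summit at 34521489, 25 bp away. Its pileup was 11 (5.49 to 19.7) and its fold enrichment 6.19. Nearer to the TSS, at 34522855 (2.1 kb), a FLAG-wt-Cdx2 summit had a pileup of 12 (6.20 to 21.0) and a fold enrichment of 6.57, and the nearest FLAG-wt-Cdx1 summit was the one 1391 bp downstream of it.

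The other shared SPDEF summits were at 34485489 and 34485514, 39.5 kb from the TSS and 19.5 kb past the gene. There the pileups were 15 (8.40 to 24.7) with FLAG-wt-Cdx1 and 13 (6.92 to 22.2) with FLAG-wt-Cdx2, and the fold enrichments 8.90 and 8.26 were above 96.0% and 95.9% of the lists. PACSIN1 lies 2.6 kb past the end of SPDEF in GRCh38.p14, and this site as well as the 3 unshared summits downstream of SPDEF were farther from the gene than that. Apart from the FLAG-wt-Cdx2 summit 2.1 kb from the TSS, the unshared SPDEF summits, 3 in each library, had pileups of 5 to 9.

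At MUC2, the strongest peaks of both libraries overlapped inside the gene. The FLAG-wt-Cdx1 peak from 1092467 to 1093007 had its summit 17.7 kb downstream of the TSS, with 36 fragments (25.2 to 49.8) and a fold enrichment of 10.73. The FLAG-wt-Cdx2 peak from 1092369 to 1093063 had its summit at 17.9 kb, with 38 fragments (26.9 to 52.2) and a fold enrichment of 9.70. By pileup they were above 99.5% and 99.7% of their lists. The local background under them was also high, at 3.07 and 4.35 times the genome-wide background. These values were above 97.6% and 99.6% of the lists, and no input library was at hand to set beside them. The summits of these strongest peaks were 216 bp apart, so that they do not count as shared although all 541 bp of the FLAG-wt-Cdx1 peak lay in the other. Next to them, at 1093435 and 1093454, shared summits had 27 (17.8 to 39.3) and 25 (16.2 to 36.9) fragments.

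Upstream of MUC2, the summits nearest to the TSS were shared and stood 4.6 kb before it, at 1070417 and 1070409. The pileups were again 27 (17.8 to 39.3) with FLAG-wt-Cdx1 and 25 (16.2 to 36.9) with FLAG-wt-Cdx2, and the fold enrichments 10.46 and 8.91 were above 98.6% and 97.5% of the lists. A weaker shared pair stood 5.1 kb before the TSS, with 14 and 15 fragments. For FLAG-wt-Cdx1 this summit was above 85.1% of the list by pileup and 48.5% by fold enrichment. At 21.1 kb upstream the pair had 17 (9.90 to 27.2) and 16 (9.15 to 26.0) fragments, and at the edge of the window, 29.8 kb upstream, FLAG-wt-Cdx1 had 18 (10.7 to 28.4) and FLAG-wt-Cdx2 12 (6.20 to 21.0). The next summits beyond this edge, at 35.8 kb, had pileups of 8 and 13. In GRCh38.p14 the mucin genes MUC6 and MUC5AC are 38.2 kb upstream and 47.4 kb downstream of MUC2. Nearer on the upstream side are LOC107987157 (1.4 kb), LOC124902605 (16.5 kb) and LINC02688 (19.1 kb).

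Downstream of MUC2, most FLAG-wt-Cdx1 summits lay close together. A group of summits of both libraries lay 43.4 to 44.6 kb from the TSS. There a FLAG-wt-Cdx1 peak of 842 bp, with 20 fragments (12.2 to 30.9), overlapped FLAG-wt-Cdx2 peaks at 1118902 and 1119585 whose summits were 345 and 338 bp away and had 9 fragments each. The shared pair of this group had 8 (3.45 to 15.8) and 13 (6.92 to 22.2) fragments. The last shared pair, 57.0 kb from the TSS, had 13 fragments in both libraries.

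At TFF3, a peak at the TSS was called in the FLAG-wt-Cdx2 library, and it was among the weakest. It spanned 43736336 to 43736608 with its summit 0.4 kb upstream of the TSS, 5 fragments (1.62 to 11.7), a fold enrichment of 3.54 and a pileup above 1.51% of the list. The nearest FLAG-wt-Cdx1 summit was 10176 bp away. The strongest FLAG-wt-Cdx2 peak of the locus, at 43754040 (18.0 kb upstream), had 16 fragments (9.15 to 26.0), above 95.5% of the list, and no FLAG-wt-Cdx1 summit within 2008 bp. The strongest FLAG-wt-Cdx1 peak, at 43712789, was 18.2 kb past the gene with 15 fragments (8.40 to 24.7), and the FLAG-wt-Cdx2 summit 53 bp from it had 10 (4.80 to 18.4).

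Beside that site, a pair with summits 88 bp apart had 12 (6.20 to 21.0) and 7 (2.81 to 14.4) fragments. The remaining shared pair, 13.7 kb upstream of TFF3, had 7 (2.81 to 14.4) and 10 (4.80 to 18.4). In GRCh38.p14 ABCG1 lies 14.4 kb past the end of TFF3, closer than the downstream pairs, and the other trefoil genes TFF2 and TFF1 lie 30.9 and 46.9 kb upstream.

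Of the summits of the 4 loci, 14 of 27 with FLAG-wt-Cdx1 (51.9%, 95% Clopper-Pearson interval 31.9 to 71.3) and 14 of 35 with FLAG-wt-Cdx2 (40.0%, 23.9 to 57.9) had a summit of the other library within 100 bp. In the whole lists 29.2% and 26.3% did. In 1 Mb on either side of each window the share was 28.2 to 41.4% for FLAG-wt-Cdx1 and 23.4 to 31.5% for FLAG-wt-Cdx2. The intervals take summits as independent, although some stood in close groups, so that they are no test against the lists. MUC2 held 8 of the pairs, 66.7% of its FLAG-wt-Cdx1 summits and 47.1% of its FLAG-wt-Cdx2 summits. Without MUC2 the shares were 40.0% (16.3 to 67.7) and 33.3% (13.3 to 59.0), nearer to those of the lists. The limit of 100 bp fell between the TFF3 pair at 88 bp and the ATOH1 pair at 126 bp. Shared summits had a median pileup of 14.5 and 13 fragments against 9 and 9 for the others, and in the whole lists these medians were 11 and 9 against 9 and 7. The pooled medians mix loci of unlike height. At MUC2 they were 15.5 and 15 for shared summits against 15.5 and 9. At the other loci they were 14 and 10 against 8 and 8.5.

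Peaks above at least 90% of their list by pileup numbered 7 with FLAG-wt-Cdx1 (25.9%, against 8.67% of the list) and 8 with FLAG-wt-Cdx2 (22.9%, against 7.62%). Of these, 6 and 7 were at MUC2 (50.0% and 41.2% of its peaks), and in 1 Mb on either side of the MUC2 window 25.1% and 28.3% of peaks were also above this level. The others were the FLAG-wt-Cdx1 peak 3.5 kb into SPDEF and the FLAG-wt-Cdx2 peak 18.0 kb upstream of TFF3. A −log10 q of at least 5 was reached by 17 FLAG-wt-Cdx1 peaks (63.0%, against 52.2%) and 17 FLAG-wt-Cdx2 peaks (48.6%, against 29.0%). Without MUC2 these were 8 (53.3%) and 7 (38.9%).

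**Figure D3:**
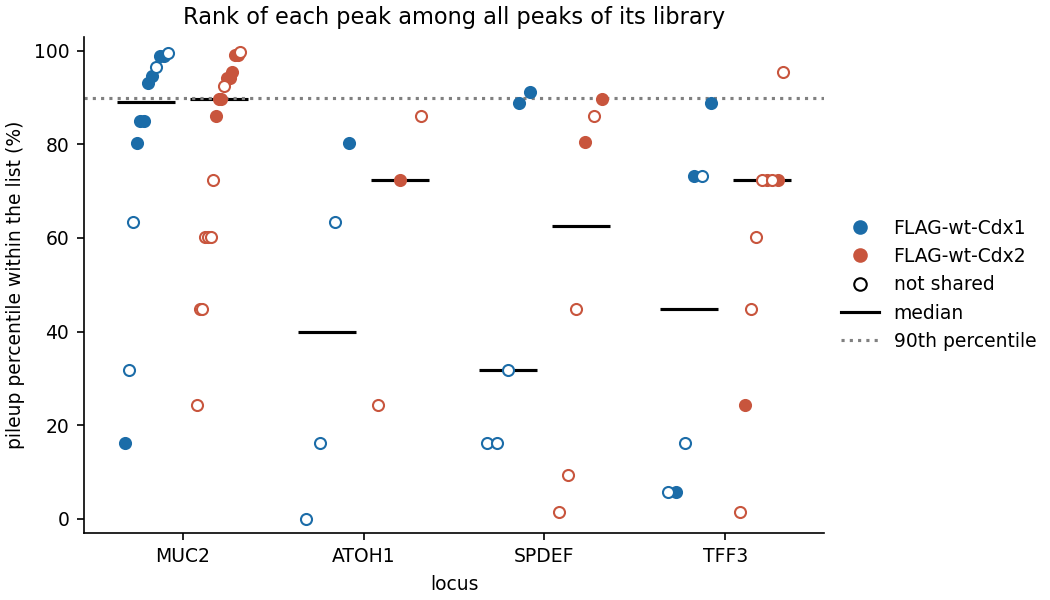
Pileup percentile of each peak in its own list (vertical axis, percent of peaks with a lower pileup) by locus and library (FLAG-wt-Cdx1 blue, FLAG-wt-Cdx2 red), with filled points for shared and open points for unshared summits, black lines at the medians and a dotted line at the 90th percentile. The MUC2 peaks reach 99.5 and 99.7, and the highest at ATOH1 are 80.2 and 86.1.

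At the 14 shared pairs, the pileup of FLAG-wt-Cdx2 over that of FLAG-wt-Cdx1, scaled by the genome-wide background of each library (0.694 and 0.798 fragments, respectively), ranged from 0.67 to 1.87 with a median of 1.06, and the median of all 57545 shared pairs was 1.01. Without the MUC2 pairs the median was 0.84. All 14 exact conditional binomial intervals held 1. A pair needs a summit called in both libraries, so that sites called in a single library have no ratio. This choice tends to keep large differences out of the range and the medians. The lowest ratio, 0.67 (0.22 to 1.85), was at TFF3, 22.9 kb downstream of the TSS, and the highest, 1.87 (0.72 to 5.20), was at MUC2, 43.6 kb downstream. The intervals are wide, so that differences of this size between the factors were not detectable at this depth. The summits of a pair were 3 to 88 bp apart, with a median of 24.5 bp.

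**Figure D4:**
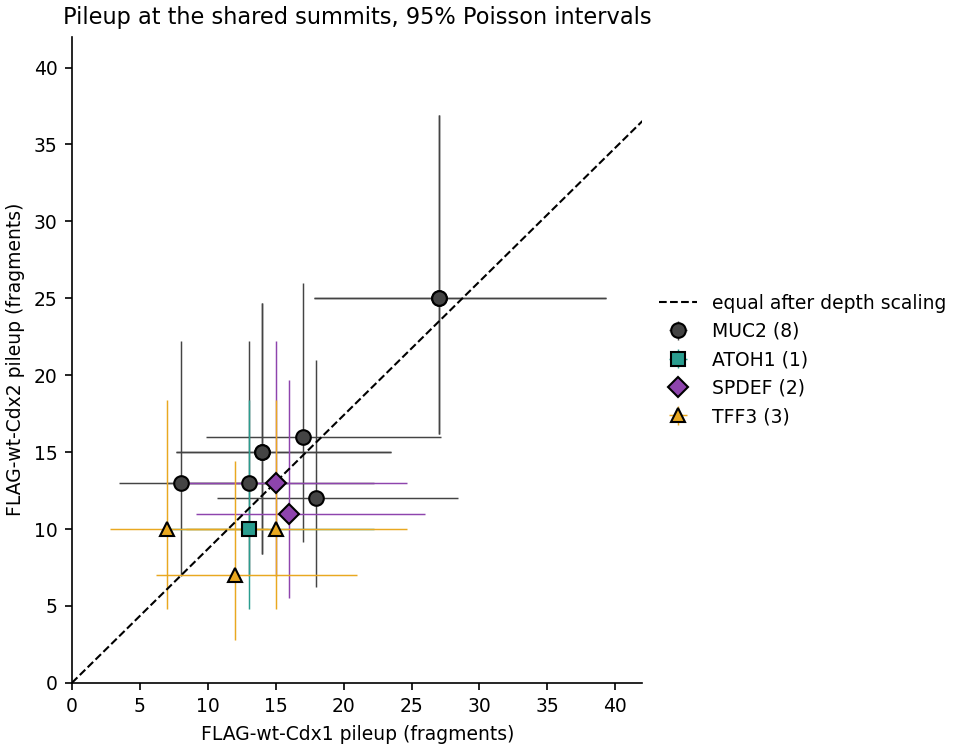
Pileup of the 14 shared pairs in fragments, FLAG-wt-Cdx1 on the horizontal and FLAG-wt-Cdx2 on the vertical axis, with 95% exact Poisson intervals as bars and equal depth-scaled pileup as the dashed line. MUC2 pairs at 27 and 25 fragments coincide, as do those at 14 and 15, and every pair has a FLAG-wt-Cdx1 pileup between 7 and 27.

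The local background, recovered from pileup and fold enrichment, was higher at MUC2 than at the other loci. With no control library it was taken from the tags of the same library over 10 kb, so that strong or neighboring peaks add to it, and it is not independent of the number and height of the peaks. It exceeded 2 times the genome-wide value at 6 of its 12 peaks with FLAG-wt-Cdx1 (50.0%) and at 10 of 17 with FLAG-wt-Cdx2 (58.8%), against 6.03% and 6.11% of the lists, and at 0 of 15 and 0 of 18 peaks of the other loci. The highest values, 3.12 and 4.35 times, were at the peaks inside MUC2. In 1 Mb on either side of the MUC2 window 24.6% and 34.2% of peaks were above this level. Its part in the number and height of the MUC2 peaks was not tested. MUC2 holds a long tandem repeat, and whether these peaks lie on it was not determined.

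**Figure D5:**
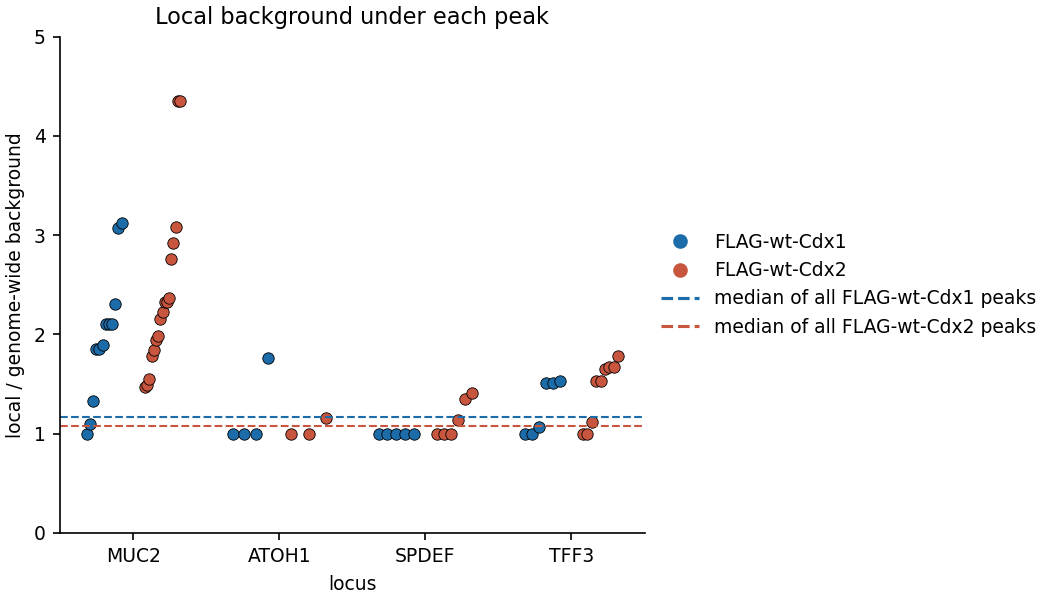
Local background at each peak as a multiple of the genome-wide value (vertical axis) by locus and library, with dashed lines at the medians of the whole lists, 1.17 and 1.08. MUC2 peaks range from 1.00 to 3.12 with FLAG-wt-Cdx1 and from 1.47 to 4.35 with FLAG-wt-Cdx2, and no peak of the other loci exceeds 1.78.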

How the data were processed

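The FLAG-wt-Cdx1 library and the FLAG-wt-Cdx2 library were compared, each assigned by its title. Peaks had been called by the authors in each library alone, using MACS 2.0.10.20131216 (q-value cutoff 0.05, effective genome size 2700000000 bp, 1 tag per position, no control library), which kept 16452141 and 13781541 tags. Per the labels, GRCh37, bcl2fastq 1.8.3, cutadapt 1.1 and Trimmomatic 0.32 were used, and the aligner is not given in the sources used here. The deposited lists give the pileup signal (raw fragments), significance as −log10 of the p-value and of the q-value, and the fold enrichment as a ratio with 1 added to both terms. Peaks called with no input library can include regions of high background.

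From these, the local background was computed as (pileup + 1) / fold enrichment − 1, and the percentile as the share of the list with a lower value. Summits within 100 bp were called shared. Pileups have exact Poisson intervals, shares Clopper-Pearson intervals and ratios exact conditional binomial intervals, all at 95%. All peaks of the windows were considered, and those named were the strongest, the nearest to the TSS and the shared peaks of each locus. Genes and lists were chosen with earlier results of these data known. Other secretory genes were not analyzed here.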

Additional observations from a re-analysis of the deposited data

How the results depend on the processing

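No paired analysis was possible because each factor was represented by a single library. The number of summits in the 4 loci (27 for FLAG-wt-Cdx1, 35 for FLAG-wt-Cdx2) became 17 and 17 at a −log10 q of at least 5, 9 and 16 with flanks of 10 kb, and 44 with flanks of 50 kb for FLAG-wt-Cdx1. At a fold enrichment of at least 5 it was 21 for FLAG-wt-Cdx2. At MUC2 alone, the 12 FLAG-wt-Cdx1 and 17 FLAG-wt-Cdx2 summits became 9 and 10 at that q, and 9 and 9 at that fold enrichment. The higher FLAG-wt-Cdx2 count at MUC2 thus rested largely on weaker peaks. The rank of MUC2 among tiles was not recomputed at these cutoffs. When both lists were cut at that q, the share of FLAG-wt-Cdx2 summits that were shared went from 40.0% to 58.8% (whole list 26.3% to 35.5%) and that of FLAG-wt-Cdx1 from 51.9% to 58.8% (29.2% to 21.9%). Over the other settings the FLAG-wt-Cdx2 share ran from 31.4% (whole list in the same setting 24.7%) to 54.3% (30.8%). That of FLAG-wt-Cdx1 ran from 40.0% (29.2%) to 66.7% (34.2%). The median percentile of the strongest peak per locus was 90 and 92.6 by pileup, 93.0 and 95.9 by fold enrichment, 92.4 and 95.5 by q, 90.7 and 91.9 within the chromosome, and 91.2 and 93.5 with ties counted in part. The median ratio of shared pairs, 1.06, fell below 1 without depth scaling (0.93), by fold enrichment (0.87) and without MUC2 (0.84). Depth scaling raises every ratio by the same factor, so that leaving it out lowers the median by construction. Why the median fell in the other settings was not tested. Summits near a TSS (2 and 4) became 0 and 1 within 2 kb and 4 and 8 within 10 kb, and 1 for FLAG-wt-Cdx1 with the TSS placed 1 kb downstream. Leaving out MUC2 and sharing within 300 bp were chosen after seeing the data.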

Other observations

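Summits 30 to 50 kb from the genes, outside the windows, included some of high pileup. Upstream of SPDEF, 39.8 kb from the TSS, FLAG-wt-Cdx1 had a summit at 34564798 with 19 fragments, above 95.7% of its list, and the FLAG-wt-Cdx2 summit at 34564786 had 6, above 9.32%. Downstream of MUC2, FLAG-wt-Cdx2 had 24 fragments at 1142404 and 20 at 1148473, 67.4 and 73.5 kb from the TSS, and the FLAG-wt-Cdx1 summits at 1142476 and 1148523 had 11 and 16. A further FLAG-wt-Cdx1 summit there, at 1141641 (66.6 kb), had 18 fragments, above 94.6% of its list. Other sites were closer in height. Downstream of TFF3, 48.1 kb from the TSS, FLAG-wt-Cdx1 had 14 fragments at 43687949 and FLAG-wt-Cdx2 had 16 at 43687920. The pileups given here are not scaled to depth. With 1 library per factor, differences between the libraries have no replicate check.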
